A study of Arabidopsis thaliana with 12 samples.

Results

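A set of 117 Arabidopsis thaliana genes with the brightest array signal in darkness was followed across plants given light and plants kept dark, all in the presence of the herbicide bromoxynil. The set was drawn from 633 probes that the platform annotation assigns to exactly 1 gene and that read above 0 in all 12 samples, out of 3439 probes in all. On the log2 scale, the median of these 633 probes was subtracted in each sample, and the brightest 20% by the mean of the dark samples were kept, which gave 127 probes. A further 11 probes were left out by number, 10 of which lay among the 127. Each of the 117 probes kept is annotated to a different gene. The genes were chosen by their dark values, so their high level in darkness is a description and was not tested.

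Transcript levels in total RNA were measured in 2 groups of wild-type plants of the Landsberg ecotype, both treated with 500 µM bromoxynil. The light group (n = 6) was given 30 min of light after a dark period of 12 h, and the dark group (n = 6) was kept for 12 h in darkness. Both groups carried the herbicide, so the comparison is light against dark under bromoxynil, and plants without it were not analysed here. Nothing in the labels ties the samples of a group to different plants or cultures. The p-values therefore cover the spread among these samples alone, and that spread may be technical. No tissue is named either. Of 7 genes of the photosystems, their antenna and the NADH dehydrogenase-like complex in the pool of 633, recognised by symbol, 5 lay in the brightest 20%, and 4 of these 5 are among the probes left out. No symbol of a seed storage or oil body protein was found in the pool, but few of its genes have a symbol, so this says nothing of the tissue.

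A pair of light samples, numbers 1 and 2, was on another scale than the remaining 10. Their median deposited intensities were 3.88 and 3.90, against 0.559 to 0.654 in the other 10 samples, and their brightest spots read 48.2 and 47.6, where the brightest spot of every other sample read 100. The brightest spot thus lay 3.49 and 3.48 log2 units above the pool median in light 1 and light 2. In light 3 to 6 this distance was 7.34 to 7.47, and in the dark samples 7.17 to 7.26. This compression was at the top of the scale. The 10th to 90th percentile of the set ran from 0.16 to 1.89 units over the pool median in light 1 and 0.21 to 1.88 in light 2. In light 3 it ran from 0.82 to 2.27, which is no wider. Because of the other scale, most changes are given over 12 samples and also without light 1 and light 2 or in numbers 3 to 6. Leaving out light 1 and light 2 alone keeps dark 1 and dark 2, whereas numbers 3 to 6 hold the same numbers in both groups.

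Bromoxynil is a nitrile herbicide that blocks electron flow out of photosystem II, the complex that takes electrons from water at the start of photosynthesis. Most proteins of the chloroplast are encoded in the nucleus, made in the cytosol and imported, and transcripts of many of these genes respond to light and to signals from the chloroplast. Genes inside the chloroplast depend on imported factors that splice, edit, stabilise or translate their RNA, among them the large family of pentatricopeptide repeat proteins, each of which binds particular RNA sequences. The signal of a spot also depends on its probe, so levels are compared here between samples and by rank, and not as amounts of RNA between genes. In RNA pooled from many cells, fewer cells of a type and less RNA per cell cannot be told apart.

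The brightness of the set was uneven. The mean dark signal ran from 1.65 to 84.6 times the pool median, with a median of 2.26 times. Only 3 genes lay more than 4 log2 units above the pool median, 12 more than 2 units and 77 more than 1 unit, while 40 lay less than 1 unit above it. At the lower edge, AT1G01730, AT3G02450 and AT5G61470 lay just inside at 1.667, 1.657 and 1.654 times the median, and AT3G61540, AT1G24040 and AT1G17744 just outside at 1.654, 1.653 and 1.648 times. The edge therefore falls in a continuous range of signal and not at a gap.

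**Figure D1:**
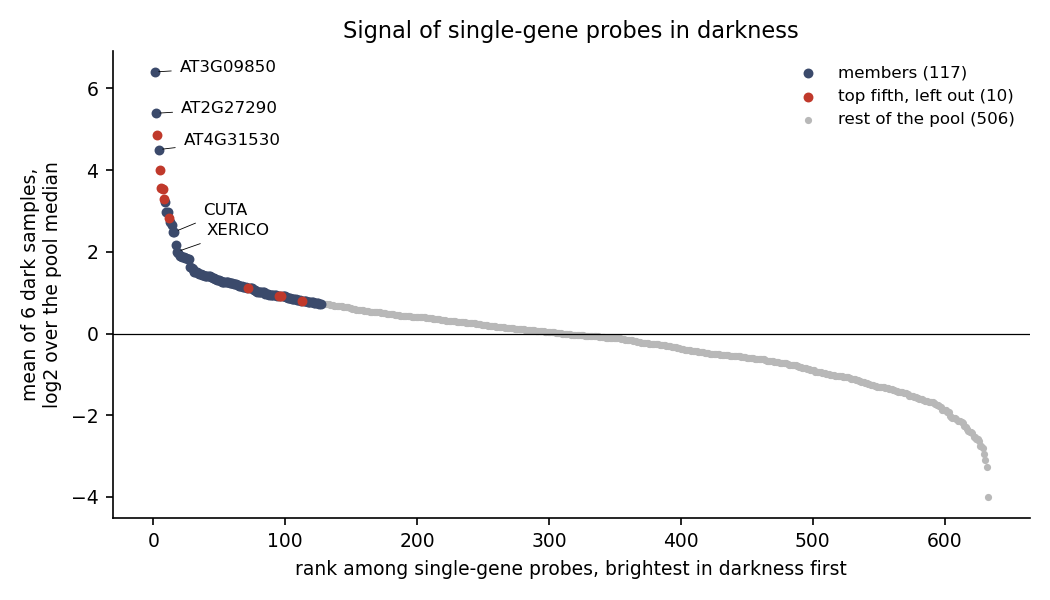
Mean of the 6 dark samples in log2 units over the pool median (vertical axis) for 633 single-gene probes in order of that mean (horizontal axis). Blue points are the 117 genes described, red points the 10 probes of the brightest 20% that were left out, and grey points the other 506. The curve drops steeply from AT3G09850 at 6.40 units and is nearly level where the set ends at 0.73.

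Few of these genes have a name. A gene symbol other than the locus tag was given by the RefSeq gene table for 12 of the 117 (10.3%), against 67 of the other 506 pool genes (13.2%). The families named below rest on general knowledge of these loci as background, could be given for 70 of the 117 genes, and were sorted into groups after the values had been seen. The largest group with a shared theme, of 13 genes, is signalling and transcription. It holds XERICO, a RING zinc-finger protein that raises levels of the hormone abscisic acid, the protein kinase ATSIK, the calmodulin-like CML41, the basic helix-loop-helix factor AT4G00870 and the MADS-box gene AT5G40070. Factors of organelle RNA make up 11 genes, of which 8 encode pentatricopeptide repeat proteins. Metabolic enzymes make up 10, among them the NADP-dependent malate dehydrogenase AT5G58330, which helps to export reducing power from the chloroplast, the dihydroxyacid dehydratase AT3G23940 of branched-chain amino acid synthesis, and CYN, the cyanase that breaks down cyanate. Protein folding and turnover is represented by 7 genes, with the peptidyl-prolyl isomerases AT4G17070, AT1G74070 and AT5G35100. AT3G47650, also among them, is a zinc-finger protein related to BSD2, which is a Rubisco assembly chaperone. Only 3 genes of the photosynthetic membrane are included. They are NdhN, a subunit of the chloroplast NADH dehydrogenase-like complex of cyclic electron flow, CRR41, an assembly factor of that complex, and FZL, a GTPase that remodels chloroplast membranes. The other 47 genes were given no role.

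AT3G09850, which encodes a G-patch protein of a class that binds nucleic acids, was the brightest single-gene probe of the pool in darkness. Its deposited intensity was 26.9 and 29.2 in light 1 and light 2 and 57.3 to 66.8 in light 3 to 6, against 46.0 to 72.3 in the dark samples. On the normalised log2 scale, on which all samples share 1 distribution and which is used for all levels below, it read 3.78 and 4.04 in light 1 and light 2 and 5.62 to 5.82 in light 3 to 6, against 5.62 to 6.06 in darkness. The light mean was 5.15 ± 0.97 and the dark mean 5.80 ± 0.21 (SD, n = 6 each). Light 3 to 6 overlapped the dark samples, and the lower light mean came from light 1 and light 2.

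The next genes in order showed the same division. AT2G27290 read 2.10 and 1.95 in light 1 and light 2 and 4.72 to 4.84 in light 3 to 6, against 4.84 to 5.01 in darkness. Its deposited intensity was 29.9 to 31.1 in light 3 to 6 against 26.3 to 30.0 in darkness, so the order of these samples depended on the scaling. AT4G31530, a protein with the fold that binds NAD or NADP, read 2.81 and 3.08 in light 1 and light 2 and 4.20 to 4.55 in light 3 to 6, against 3.96 to 4.33 in darkness. The isomerase AT4G17070 read 0.11 and 1.51 in light 1 and light 2 and 3.18 to 3.28 in light 3 to 6, against 1.89 to 3.45 in darkness. In these 3 genes light 1 and light 2 lay below every dark sample, and light 3 to 6 met or overlapped the dark range. AT4G19900, of a glycosyltransferase family, was alike, with 1.29 and 1.62 in light 1 and light 2 and 2.73 to 2.92 in light 3 to 6, against 2.64 to 3.06 in darkness.

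Other genes among the 12 brightest were high in light 1 and light 2. AT1G35510, an O-fucosyltransferase family protein that adds the sugar fucose, read 4.11 and 5.01 in light 1 and light 2 and 2.58 to 2.72 in light 3 to 6, against 2.27 to 2.72 in darkness. AT1G62250 read 4.33 and 4.11 in light 1 and light 2 and 2.62 to 2.85 in light 3 to 6, against 2.21 to 2.92 in darkness. CUTA, a copper-binding protein of the chloroplast, read 3.22 and 3.25 in light 1 and light 2 and 2.26 to 2.50 in light 3 to 6, against 2.12 to 2.64 in darkness. Light 3 to 6 lay within the dark range for CUTA and AT1G62250. The kelch-repeat F-box gene AT4G39760 read 3.08 and 3.22 in light 1 and light 2 and 2.55 to 2.80 in light 3 to 6, against 2.68 to 2.83 in darkness. For AT2G33180, light 1 and light 2 lay within the dark range. XERICO ran from 1.65 to 1.96 with a median of 1.83 in light, against 1.75 to 2.04 with a median of 1.97 in darkness.

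**Figure D2:**
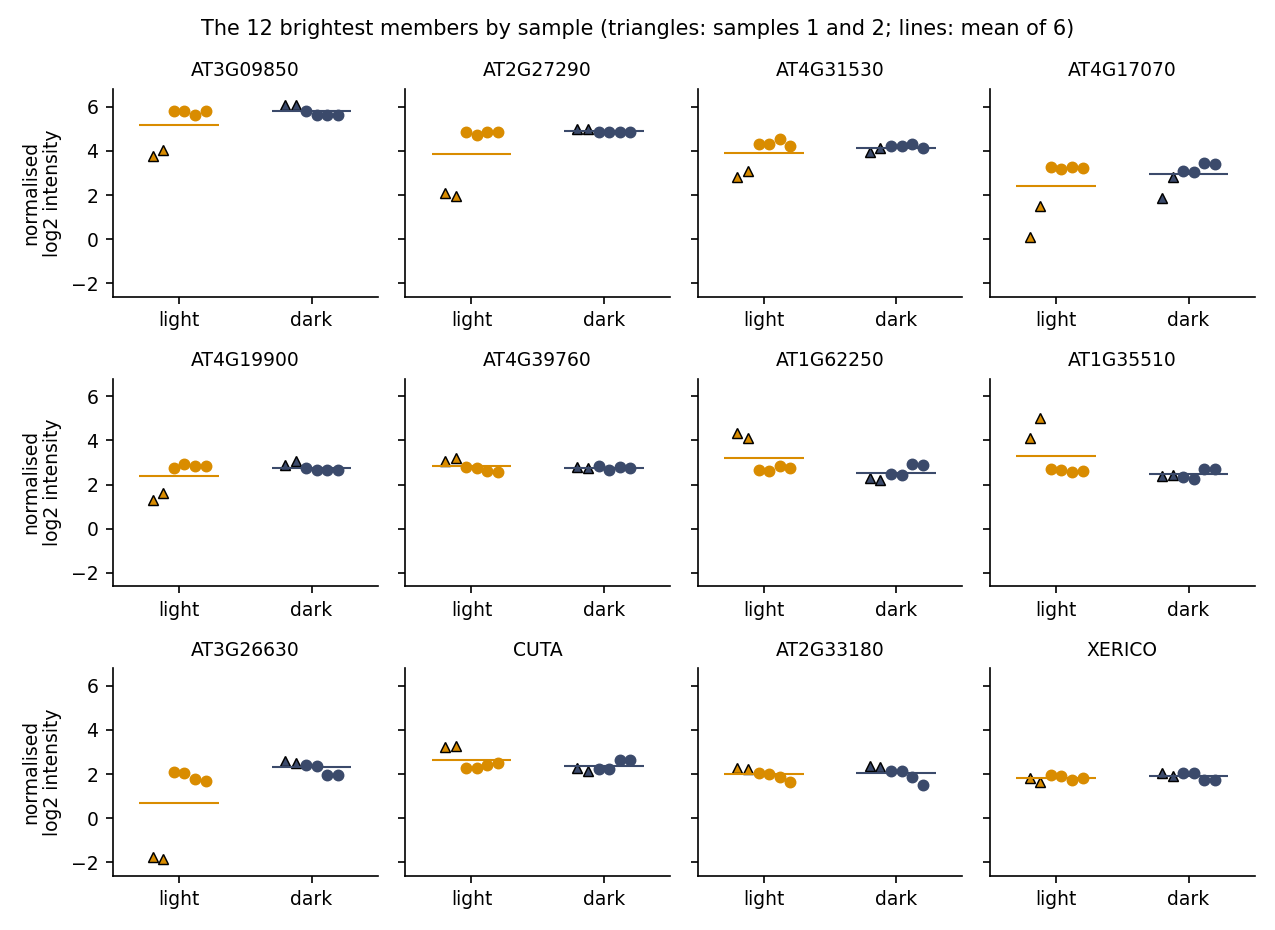
Normalised log2 intensity (vertical axis) of the 12 brightest genes of the set in each light sample (orange, left) and each dark sample (blue, right). Triangles are samples 1 and 2 of a group, circles samples 3 to 6, and lines the mean of 6. Light 1 and light 2 leave the other light samples downward in 6 genes, such as AT2G27290 at 2.10 and 1.95, and upward in others, such as AT1G35510 at 4.11 and 5.01.

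The genes that were bright in darkness were mostly bright in light as well. The light samples took no part in the choice except that a probe had to read above 0 in them. By the mean of all 6 light samples, 103 of the 117 genes (88.0%) lay in the brightest 20% of the pool, and by light 3 to 6 alone 100 (85.5%) did. By light 1 and light 2 alone the count was 82 (70.1%). All 12 of the brightest genes stayed in the brightest 20% by light 3 to 6, and 11 by light 1 and light 2, where AT3G26630 was missing. Across the 117 genes, the Spearman correlation of the light mean with the dark mean was 0.862 with light 3 to 6 and 0.544 with light 1 and light 2. These correlations are across genes of the same samples and are given as a description. With light 3 to 6 none of the 117 lay below the pool median, whereas with light 1 and light 2 there were 7, the lowest being AT2G11270 at rank 623 of 633.

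**Figure D3:**
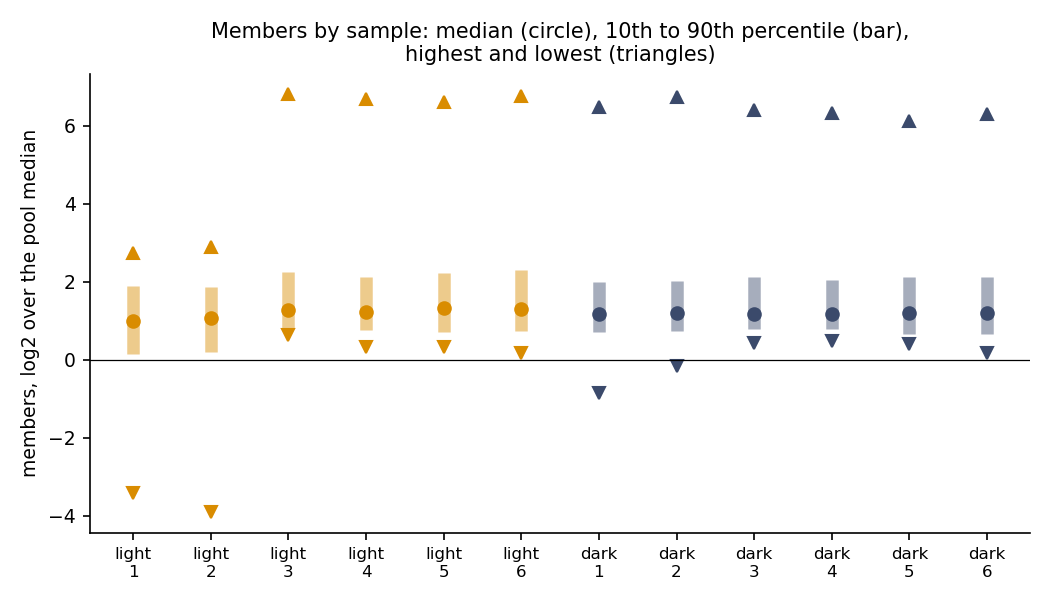
Level of the 117 genes in each sample, in log2 units over the pool median (vertical axis), with light samples in orange and dark samples in blue. Circles are medians, bars run from the 10th to the 90th percentile, and triangles mark the highest and lowest gene. The highest gene stood at 2.74 and 2.90 in light 1 and light 2, 6.61 to 6.81 in light 3 to 6 and 6.14 to 6.73 in the dark samples.

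The design asks which transcripts change within 30 min of light under bromoxynil, and 1 gene of the set was called. AT1G03810, a protein with an OB-fold domain that binds nucleic acids, fell in light. By limma over all 3381 tested probes with Benjamini-Hochberg adjustment at 0.05, 1 of the 117 genes (0.855%) passed, while 2.84% of all tested probes did. The dark values that chose the genes are also subtracted in the change, so nothing is read from this count. Of the 10 left-out probes of the brightest 20%, 3 passed, which makes 4 of 127 (3.15%) for the whole brightest 20%. At an unadjusted limma p under 0.05 there were 25 of the 117, against 18.9% of all tested probes. Without light 1 and light 2, AT1G03810 was again the only 1 of the 117 past the threshold, beside 2.9% of all probes. The sample numbers pair the groups, and with the number as a block 3 of the 117 passed (AT3G06870, AT1G50880 and AT1G03810), against 3.43% of all probes. With consecutive samples of a group (1 with 2, 3 with 4, 5 with 6) treated as a random block, or averaged, 0 of the 117 passed by limma, against 0.473% and 0.0296% of all probes. Unadjusted p was then under 0.05 for 15 (12.8%) and 3 (2.56%) of the 117, against 9.17% and 5.94% of all probes.

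AT1G03810 read 0.77, 0.98, 0.86, 0.75, 0.74 and 0.78 in light 1 to 6, against 1.17, 1.25, 1.13, 1.15, 1.06 and 0.98 in dark 1 to 6. All light samples but light 2 lay below every dark sample, and light 2 lay just above dark 6. The change was -0.31 ± 0.07 on the log2 scale (limma, SE, adjusted p 0.0431). By pairs of numbers it was -0.34 (1 and 2), -0.34 (3 and 4) and -0.26 (5 and 6), so its size did not rest on light 1 and light 2. With median centring it was -0.21, and unscaled it was 0.54, where the median of all probes was 0.78. Without light 1 and light 2 it was -0.35 ± 0.07 (limma adjusted p 0.0294). Its call was not robust to single samples, since it passed in 2 of the 12 fits that each left out 1 sample, and its adjusted p was 0.055 when probes with a value of 0 in any sample were left out.

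The next 4 genes by adjusted p, all under 0.1, are named after their values were seen. AT3G06870 read 0.80 to 1.57 in light, with a median of 1.31, against 1.61 to 1.96 in darkness, with a median of 1.71. Its groups did not overlap, and its change was -0.48 ± 0.13 (limma adjusted p 0.0753, and 0.0375 with the sample number as a block), or -0.33 without light 1 and light 2. AT3G19120 read 0.06 to 0.58 in light against 0.67 to 1.02 in darkness, again without overlap, with a change of -0.42 ± 0.11 (limma adjusted p 0.0638), or -0.47 without light 1 and light 2. AT3G19810 read 1.18 to 1.53 in light against 1.58 to 2.02 in darkness, without overlap, with a change of -0.40 ± 0.10 (limma adjusted p 0.0704), or -0.32 without light 1 and light 2. AT1G50880 had a change of -0.36 ± 0.09 (limma adjusted p 0.0528), or -0.32 without light 1 and light 2. With median centring the changes of AT3G06870, AT3G19120, AT3G19810 and AT1G50880 were -0.28, -0.35, -0.185 and -0.24, and none of these 4 passed. The limma adjusted p of AT3G06870 was then 0.38, and it was 0.379 with consecutive samples as a random block. The RNA methyltransferase family gene AT5G15390 had a change of 0.13 over 12 samples but 0.27 in numbers 3 to 6, where it passed without the block (limma adjusted p 0.0372, 3.49% of all probes called) and did not pass with the sample number as a block (limma adjusted p 0.0922). AT5G15390 read 0.58 and 0.52 in light 1 and light 2 and 0.83 to 0.94 in light 3 to 6, against 0.58 to 0.74 in darkness.

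In all, 6 of the 117 genes (5.13%) had every light sample below every dark sample, where 2.04% of all tested probes did. They were AT3G19810, AT3G06870, AT1G67800, AT5G46560, PRA1.B6 and AT3G19120. None of the 117 had every light sample above every dark sample, where 2.51% of all probes did. With light 3 to 6 only, 11 lay below and 1 above, where 4.14% of all probes did in each direction. The choice by dark level favours the first direction, so these counts carry no test. PRA1.B6, which belongs to a family of prenylated RAB acceptors in vesicle traffic, read -0.32 and 0.16 in light 1 and light 2 and 0.63 to 0.75 in light 3 to 6, against 0.80 to 1.17 in darkness. The copine family gene AT1G67800, whose relatives bind phospholipids in response to calcium, read 0.26 to 1.42 in light against 1.44 to 1.63 in darkness.

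Most changes of the set were small where light 1 and light 2 were not involved. In numbers 3 to 6 the change ran from -0.48 to 0.32 over the 117 genes with an SD of 0.17, and none exceeded 0.5 in size, whereas the 506 other pool genes had an SD of 0.29. In numbers 1 and 2 it ran from -4.36 to 2.15 with an SD of 0.91, and 16 genes exceeded 1, of which 13 were lower and 3 higher in light. There the SD of the 506 others was smaller, at 0.69. Over 12 samples, the 95% confidence interval of the change lay within 1 log2 unit of 0, that is within a 2-fold change either way, for 103 of the 117 genes (88.0%), against 77.8% of all tested probes. Without light 1 and light 2 it did so for 113 (96.6%), against 83.9% of all probes. The median half-width of these intervals was 0.27 and 0.24. Bright genes also varied less between samples. The median SD of a gene was 0.11 in light 3 to 6 and 0.17 in the dark samples for the set, against 0.18 in light 3 to 6 and 0.25 in the dark samples for the other 506. Over all 6 light samples the values were 0.23 for the set and 0.30 for the others.

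The direction of the set as a whole depended on the scaling. With quantile normalisation the median change was -0.10, against 0.02 over all tested probes, and 72 of the 117 genes (61.5%) were lower in light, against 47.6% of all probes. With each sample centred on its median, the median change was 0.00 and 58 of the 117 (49.6%) were lower. In numbers 3 to 6 the median was -0.07 with 77 genes lower after quantile normalisation, and 0.07 with 39 lower after median centring. Values without any scaling had a median change of 0.75, but the median of all probes was then 0.78. No direction is therefore given for the set.

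**Figure D4:**
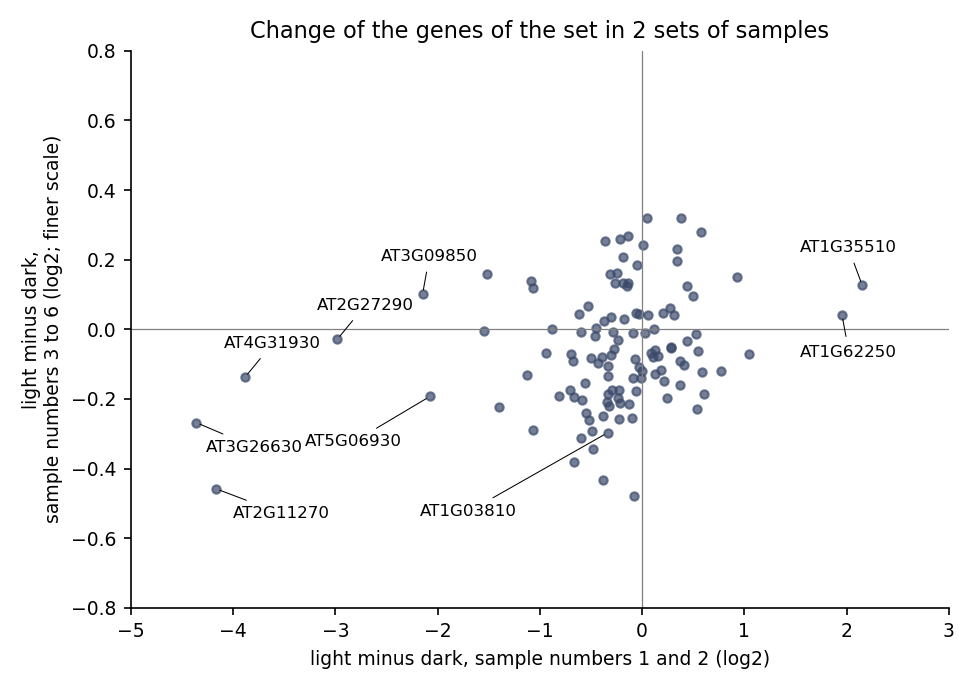
Light minus dark change on the normalised log2 scale for the 117 genes, in sample numbers 1 and 2 (horizontal axis) and in numbers 3 to 6 (vertical axis, drawn on a finer scale). The horizontal spread from -4.36 to 2.15 contrasts with a vertical spread from -0.48 to 0.32. AT1G03810 lies at -0.34 and -0.30.

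By role, no group except the nucleic-acid-binding one had a gene past the threshold, and that gene was AT1G03810. The whole set had a median change of -0.10 over 12 samples, with 61.5% of genes lower, and -0.07 in numbers 3 to 6. As the direction of the set depended on the scaling, none is read for a group either. Of the 11 organelle RNA factors, 9 had a negative and 2 a positive change, with a median of -0.15 over 12 samples and -0.08 in numbers 3 to 6, and 0 passed by limma. Among them mTERF9 (AT5G55580), a chloroplast protein of the mitochondrial-transcription-termination-factor type, had -0.10 (95% CI -0.32 to 0.13), or -0.22 without light 1 and light 2. CRR21, a pentatricopeptide repeat protein needed to edit a chloroplast transcript of the NADH dehydrogenase-like complex, had -0.14 (-0.33 to 0.05), or -0.21 without them. The 10 metabolic enzymes had 7 negative and 3 positive changes, with a median of -0.19 and -0.13 in numbers 3 to 6. For the malate dehydrogenase AT5G58330 the change was -0.02 (95% CI -0.21 to 0.17) and -0.03 without light 1 and light 2, with 1.63 to 1.95 in light against 1.63 to 1.99 in darkness, so the groups covered the same range. The dehydratase AT3G23940 had -0.26 (-0.51 to -0.004, limma adjusted p 0.257), or -0.13 without them and -0.22 in numbers 3 to 6. In the 13 genes of signalling and transcription 6 changes were positive and 7 negative, with a median of -0.04 and -0.12 in numbers 3 to 6.

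The 7 genes of protein folding and turnover had a median change of -0.12 and ran from -0.52 for AT4G17070 to 0.38 for the DnaJ-domain gene AT1G21660. Without light 1 and light 2 the median was again -0.12, but AT4G17070 turned to 0.32, and the group ran from -0.21 to 0.48. That fit keeps dark 1 and dark 2, where AT4G17070 read 1.89 and 2.83. In numbers 3 to 6 the change of AT4G17070 was -0.006. The group then had a median of -0.10 and ran from -0.345 to 0.28. The isomerase AT1G74070 read 1.44 to 1.81 in light with a median of 1.67, against 1.58 to 1.91 with a median of 1.81 in darkness, and its change was -0.12 (95% CI -0.33 to 0.08), or -0.21 without light 1 and light 2. The 3 genes of vesicle traffic and transport had negative changes over 12 samples, but the aquaporin-like gene AT2G29870 turned from -0.13 to 0.39 without light 1 and light 2 and was at 0.07 in numbers 3 to 6. Another is MON1 (AT2G28390), a SAND family protein of vacuolar traffic, with 0.48 to 0.67 in light against 0.65 to 0.88 in darkness and a change of -0.19 ± 0.07 (limma adjusted p 0.144), or -0.20 without light 1 and light 2. The plastid peroxiredoxin AT3G52960, which reduces peroxides, had -0.19 (-0.57 to 0.19), or -0.36 without them and -0.215 in numbers 3 to 6. Among the brightest genes of the remaining small groups, AT4G31470 is related to pathogenesis-related protein 1. It had 0.23 (-0.22 to 0.67), or 0.32 in numbers 3 to 6 and 0.48 without light 1 and light 2. AT4G39690, related to the MIC60 subunit of the mitochondrial inner membrane, had 0.03 (-0.21 to 0.27), or 0.14 without them. The SpoU-type RNA methyltransferase family gene AT2G19870 had 0.00 (-0.20 to 0.20) over 12 samples and -0.06 in numbers 3 to 6.

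In the photosynthetic membrane group, NdhN read -0.02 and -0.19 in light 1 and light 2 and 1.34 to 1.57 in light 3 to 6. In darkness it read 0.37 and 0.10 in dark 1 and dark 2 and 1.57 to 1.79 in dark 3 to 6. Samples 1 and 2 were thus low in both groups, and light lay below dark in each pair, with mean changes of -0.34 for 1 and 2, -0.22 for 3 and 4 and -0.15 for 5 and 6. Over 12 samples its change was -0.24 (95% CI -1.15 to 0.68), and leaving out light 1 and light 2 alone turned it to 0.28, because dark 1 and dark 2 remained. AT2G29870 and the rhodanese-domain gene AT4G27700 were likewise lowest in samples 1 and 2 of both groups. CRR41 had -0.20 (-0.39 to -0.02, limma adjusted p 0.235), which was -0.26 without light 1 and light 2. FZL had 0.18 over 12 samples, -0.22 without light 1 and light 2 and -0.12 in numbers 3 to 6.

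The largest negative changes over 12 samples, among genes with the same sign in each of the 3 pairs of numbers, were larger in size with light 1 and light 2 than without them. AT2G11270 read -2.85 and -3.24 in light 1 and light 2 and 0.47 to 0.86 in light 3 to 6, against 0.74 to 1.57 in darkness. Its change was -1.70 over 12 samples (limma adjusted p 0.243) and -0.46 without light 1 and light 2. The pentatricopeptide repeat gene AT3G26630 read -1.76 and -1.85 in light 1 and light 2 and 1.71 to 2.11 in light 3 to 6, against 1.95 to 2.60 in darkness. Its change was -1.63 (limma adjusted p 0.259) and -0.44 without light 1 and light 2. AT4G31930, of a mitochondrial glycoprotein family, read -2.89 and -2.76 in light 1 and light 2 and 0.58 to 1.07 in light 3 to 6, against 0.70 to 1.36 in darkness, with -1.39 (limma adjusted p 0.333) and -0.15 without light 1 and light 2. AT5G06930, AT5G46560 and PRA1.B6 followed at -0.82, -0.61 and -0.55, and at -0.29, -0.27 and -0.30 without light 1 and light 2. For AT5G46560 and PRA1.B6 light 3 to 6 also lay below every dark sample. Their limma adjusted p was 0.153 and 0.126 over 12 samples, and 0.0914 and 0.0938 without light 1 and light 2. In that fit it was 0.191 for AT2G11270, 0.212 for AT3G26630, 0.619 for AT4G31930 and 0.196 for AT5G06930. None of these 6 passed the test over all probes.

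The largest positive changes by the same rule were smaller. AT2G40980 read 1.02 to 1.60 in light with a median of 1.34, against 0.39 to 1.24 in darkness, with a change of 0.41 (limma adjusted p 0.188). AT1G21660 had 0.38, the calcium-binding EF-hand gene AT4G32060 had 0.34, AT5G33390 had 0.27, the WD40-repeat gene AT3G09080 had 0.24 and AT3G26580 had 0.23. Without light 1 and light 2 these were 0.31 for AT2G40980, 0.48 for AT1G21660, 0.09 for AT4G32060, 0.14 for AT5G33390, 0.32 for AT3G09080 and 0.20 for AT3G26580. In numbers 3 to 6 they were 0.15, 0.28, 0.32, 0.23, 0.195 and 0.12 in the same order. With median centring AT5G33390 passed (0.40 ± 0.09, limma adjusted p 0.0447, 3.4% of all probes called) and AT1G03810 did not. AT5G33390 read 1.31 to 1.77 in light, highest in light 1 and light 2, against 1.11 to 1.53 in darkness, highest in dark 2. Of the 117 genes, 9 (7.69%) were higher in each of the 3 pairs of sample numbers, where 21.4% of all probes were. In each pair 43 (36.8%) were lower, where 18.8% of all probes were. These counts use quantile-normalised values and subtract the dark values that chose the genes, so nothing is read from them. With median centring, 39 of the 117 were lower and 78 higher in numbers 3 to 6.

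Genes with neighbouring probe numbers moved alike in numbers 1 and 2. AT3G26630 and AT4G31930, with changes of -4.36 and -3.88 there, are on consecutive probes, 2395 and 2396, and are not related in what they encode. AT2G29870 and AT4G27700, with -0.53 and -0.68, are on probes 2343 and 2344. For 116 of the 117 genes at least 1 tested probe lay within 2 probe numbers. Across them the Spearman correlation of the change with the mean change of those neighbours was 0.640 in numbers 1 and 2 and 0.139 in numbers 3 to 6. That of the dark level was -0.143, but the genes were chosen by their dark level and their neighbours were not. The choice narrows the range of that level, so this last value is no contrast to the other 2. The neighbours of AT2G27290 had a mean change of -2.52 in numbers 1 and 2, where AT2G27290 itself had -2.98. Those of AT3G09850 had -3.88, against -2.15 for AT3G09850. For AT1G35510 the neighbours had -0.20 and the gene itself 2.15, so not every large change was shared. The neighbours of AT1G03810 had 0.06, against -0.34 for AT1G03810. Over all tested probes, the correlation between probes 1 number apart was 0.590 for the change in numbers 1 and 2 (2459 probe pairs), 0.195 for that in numbers 3 to 6 and 0.134 for the dark level. It was 0.102, 0.055 and 0.020 at a distance of 10 numbers. The sources used here do not say whether probe numbers follow the place of a spot on the array, and the part of spot position in these changes was not tested.

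**Figure D5:**
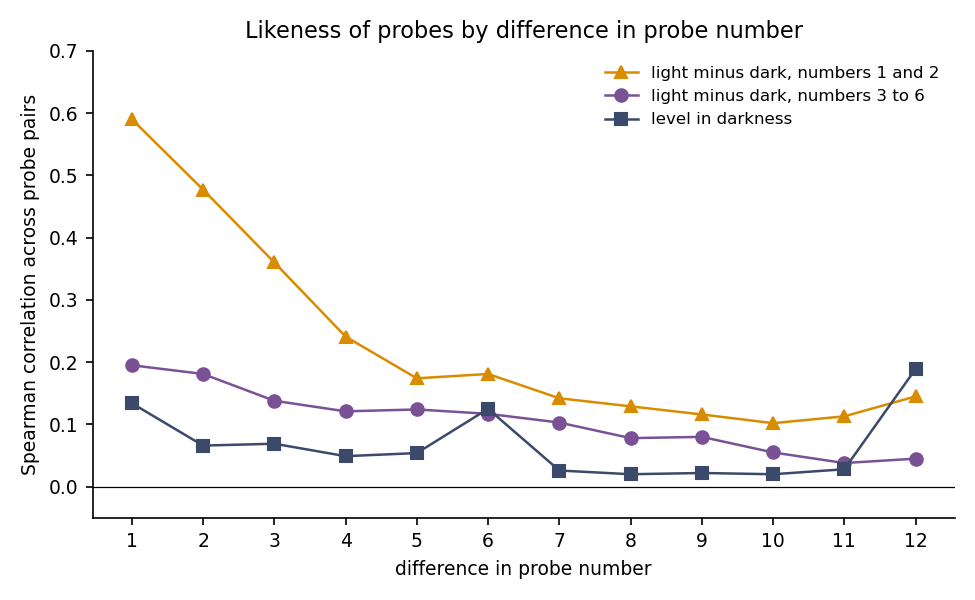
Spearman correlation across pairs of tested probes (vertical axis) by the difference of their probe numbers (horizontal axis, 1 to 12). The change in sample numbers 1 and 2 (orange) drops from 0.590 at a difference of 1 to 0.102 at 10, the change in numbers 3 to 6 (purple) starts at 0.195, and the level in darkness (blue) starts at 0.134, with 0.125 at 6 and 0.189 at 12.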

How the data were processed

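Per the labels, total RNA of 12 samples was measured, with 6 samples a group. The authors deposited relative spot intensities on a linear scale, with no value below 0. The sources used here name no scanner, background correction or scaling, so signal over background is unknown and the number of arrays limits the precision. Each 0 was replaced by the smallest positive value in its sample before log2 transformation and quantile normalisation over the 12 samples. Of 3439 probes, 58 listed at 0 in every sample were left out, and 3381 were tested with limma 3.58.1 in R 4.3.3 (functions lmFit and eBayes, no covariate, two-sided p adjusted by Benjamini-Hochberg, threshold 0.05), a fit also tested on simulated data. Of the 692 single-gene probes, 59 with a 0 in any sample could not enter the set, and the 633 others formed the pool. Names came from the platform annotation and RefSeq (TAIR10.1), where 116 of the 117 genes were matched. The RefSeq table gives no product descriptions, so the word rule planned for functional groups could not be applied to it, and families were assigned by hand. No coordinates are printed because the array's build is not given.

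Light and dark samples that share a number had deviations from their group means that correlated at 0.337 to 0.491, and each light sample correlated best with the dark sample of its own number. The numbers were therefore taken as pairs, from the data and not from the labels. Within groups, the deviations of samples 1 and 2, 3 and 4, and 5 and 6 correlated at 0.371 to 0.748 in light. In darkness they correlated at only 0.139 to 0.271 (both over probes above 0 in every sample). Other combinations of samples within a group are not given here. The set, lists and tests were chosen with earlier results of these data known. Genes named were the 12 brightest, the 6 largest changes each way that had the same sign in the 3 pairs of numbers, those past the threshold, the brightest of each role group and those at the edge of the set. Others are named as examples of their group. The alternatives tried were unscaled values, median centring, a filter on dim probes, probes without a 0, a pseudocount of 0.159 (the 10th percentile of values), a replicate block by sample number, partners as a random block or averaged, eBayes with trend and robust, leaving out samples, and choosing the set on normalised values.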

Additional observations from a re-analysis of the deposited data

How the results depend on the processing

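Counts of genes of the set past the threshold (1 over 12 samples) were 0 without scaling, with only probes above 0 in all samples, with the random block and with averaged pairs, 1 (AT3G06870) with the replicate block without sample numbers 1 and 2, 2 with the pseudocount and without sample numbers 1 and 2, and 3 with the dimmest 25% left out, with trend and robust and with the replicate block. Leaving out each sample gave 0 to 2, with 0 in 9 of 12 fits, 1 without light 2 or without dark 6 (AT1G03810 both times), and 2 without light 4 (AT1G50880 and CYN). Over all probes the count of 96 was 116 with the pseudocount, 110 of 2535 with the dimmest 25% left out, 101 with trend and robust and with only probes above 0, and 116 with the replicate block. It became 2 without scaling, 16 with the random block (consensus correlation 0.669), 1 with averaged pairs and 49 with the replicate block without sample numbers 1 and 2, a setting chosen after seeing the data. Leaving out each sample gave 46 to 86, lowest without dark 3 (46), dark 4 (57), light 5 (59) and light 6 (60). The median change of the set, -0.099, was 0.754 without scaling and 0.003 with median centring, and AT1G03810 turned to 0.54 without scaling, where the median of all probes was 0.78. The cause was not tested. Averaging or leaving out samples leaves fewer degrees of freedom. The count over all probes was 98 without light 1 and light 2 and 118 without sample numbers 1 and 2. The count of 103 genes in the brightest 20% in light stayed within 1.5 times in the alternatives run for it, and a choice by normalised dark values kept 116 of 117 genes. Of 576 recomputed changes of 32 named genes, 533 stayed within 1 SD between samples and 30 moved by more than 1 SD. The rest are in neither count.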
